A study of Homo sapiens with 16 samples.

Results

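The C/EBP transcription factor family was followed in t(8;21) acute myeloid leukaemia cells. Its 6 members, *CEBPA*, *CEBPB*, *CEBPD*, *CEBPE*, *CEBPG* and *DDIT3* (C/EBPζ, also called CHOP), were taken by gene name from the 60357 genes counted in the 12 in vitro libraries, and all 6 were among the 15863 genes with at least 600 reads over those libraries. RNA was sequenced from Kasumi-1 and SKNO-1, established lines that carry the t(8;21) fusion *RUNX1/ETO*, SKNO-1 being grown with GM-CSF. Every culture received lipid nanoparticles (LNPs) at 2 µg/ml for 24 h, was washed and was harvested on day 3. LNP/siRE-mod carried a chemically modified siRNA against *RUNX1/ETO*. LNP/siMM-mod, the control, carried a mismatch siRNA with modifications of the same kinds, though not all at the same positions. Each line and siRNA had 3 labelled libraries, so the controls had also been exposed to LNPs, and no untreated library was analysed here. Nothing in the labels says that the 3 libraries of a group came from separate cultures, so p-values measure the spread between these libraries, which may be partly technical. That spread includes the large differences in *CD34* and *RUNX1T1* within a label that are described below. A further 4 libraries, from Kasumi-1 cells grown in mice, listed all 6 genes at 0, with 5571 to 10266 counts on genes in a whole library, and are not used below.

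C/EBP proteins are basic leucine zipper factors that bind DNA as dimers with each other. In the myeloid lineage C/EBPα directs the step from progenitor to granulocyte precursor, C/EBPε acts in the later precursors that form secondary granules, and C/EBPβ takes over in granulocyte production under stress or infection. RUNX1/ETO is known to interfere with *CEBPA* expression and with C/EBPα itself.

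In the annotation of the files (GRCh38) *CEBPA* lies at chr19:33299934-33302534 on the minus strand and *CEBPG* near it at chr19:33373685-33382686 on the plus strand. *CEBPB* is at chr20:50190734-50192689 (plus), *CEBPD* at chr8:47736909-47739086 (minus), *CEBPE* at chr14:23117304-23119616 (minus) and *DDIT3* at chr12:57516588-57521737 (minus). Reads were counted over all annotated exons of a gene, UTRs included, and *CEBPA*, *CEBPB* and *CEBPD* have 1 exon each.

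Reads that fall on *RUNX1T1*, the gene that supplies the ETO part of the fusion, show how far each library matches its label. By label, *RUNX1T1* stood at 297, 92.9 and 161 CPM (reads of the gene scaled to the size of the library, normalized by TMM) in Kasumi-1 siMM-mod and at 44.4, 159 and 37.3 in Kasumi-1 siRE-mod. In SKNO-1 it stood at 329, 298 and 127 in siMM-mod and at 124, 165 and 40.4 in siRE-mod, so that the labelled groups overlapped in both lines. *CD34*, a surface antigen of progenitor cells, split the libraries as well, with 117 to 421 CPM in 6 libraries and 0.108 to 0.627 CPM in the other 6. Both sets held libraries labelled Kasumi-1 and libraries labelled SKNO-1. The siRNA labels were split unevenly. All CD34-expressing libraries were labelled siMM-mod except SKNO-1 siRE-mod replicate 1, and all CD34-silent ones siRE-mod except Kasumi-1 siMM-mod replicate 3. Comparisons of siRE-mod with siMM-mod below are thus largely comparisons of CD34-silent with CD34-expressing libraries, and the 2 cannot be told apart. Read by *CD34* and then by *RUNX1T1*, the libraries fell into 4 sets of 3: CD34-expressing with higher *RUNX1T1* (297 to 329 CPM), CD34-expressing with lower (92.9 to 127), CD34-silent with higher (159 to 165) and CD34-silent with lower (37.3 to 44.4). Libraries with the same label form 12 pairs, of which 2 lay within 1 set. Over all genes the correlation of log2 CPM was 0.976 to 0.996 within the sets and at most 0.977 between them. The 2 ranges met at Kasumi-1 siMM-mod replicate 2. It correlated at 0.9756 and 0.9763 with the other libraries of its set and at 0.9766 with Kasumi-1 siMM-mod replicate 1, of another set. Because the sets were made from measured values, they are compared below by their ranges only, without a test, and the mean of a set serves only as the zero of the deviations set beside GC content. Libraries are named by their labels. Whether titles of libraries were exchanged was not tested, so every value by label holds for the labels as given. Depth was 60559466 to 147990959 counts on genes.

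Level per length ordered the members with *CEBPE* on top. Per kilobase of exon, *CEBPE* had a median of 30.9 CPM (range 8.64 to 93.6 over the 12 libraries), *CEBPG* 7.04 (4.81 to 8.38), *CEBPD* 4.98 (1.61 to 12.4), *CEBPB* 3.01 (1.13 to 9.78), *DDIT3* 2.32 (1.35 to 3.02) and *CEBPA* 1.08 (0.577 to 2.75). *CEBPE* was above each of the other 5 in 12 of 12 libraries, and *CEBPG* was above *CEBPD* in 11 and *DDIT3* above *CEBPA* in 11. The middle of the order was not settled, since *CEBPD* exceeded *CEBPB* in 8 of 12 libraries and *CEBPB* exceeded *DDIT3* in 8. *CEBPA*, the factor most often discussed in t(8;21) leukaemia, was thus the lowest of the 6 by median, at 115 to 561 reads a library. The places of *CEBPA* and *DDIT3* in this order are less certain, since their lengths include many bases shared with other genes, as given below.

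*CEBPE*, the factor of late granulocyte precursors, showed the widest separation. In the libraries labelled Kasumi-1 it stood at 20.0, 145 and 24.9 CPM with siMM-mod and at 78.9, 19.2 and 87.8 with siRE-mod. SKNO-1 gave 13.9, 15.4 and 76.2 with siMM-mod and 71.2, 13.4 and 81.3 with siRE-mod. Each labelled group thus mixed libraries at 13.4 to 24.9 CPM with libraries at 71.2 to 145 CPM, and siMM-mod and siRE-mod overlapped in both lines. Group means in Kasumi-1 were 63.4 ± 71.1 (SD, n = 3) for siMM-mod and 62.0 ± 37.3 for siRE-mod. The SKNO-1 means were 35.2 ± 35.5 and 55.3 ± 36.6.

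Read by *RUNX1T1*, the values of *CEBPE* did not mix. Among CD34-expressing libraries it was at 13.9 to 20.0 CPM where *RUNX1T1* was higher and at 71.2 to 145 where *RUNX1T1* was lower, and the nearest ends of the 2 ranges were 3.56-fold apart. The CD34-silent libraries gave 13.4 to 24.9 and 78.9 to 87.8 CPM, with the nearest ends 3.17-fold apart. Ranges that did not overlap were common in this comparison, at 38.2% of 15863 genes in the CD34-expressing and 43.3% in the CD34-silent libraries, and 5.72% of genes were higher with lower *RUNX1T1* in both. A gap of at least 3.17-fold in both sets, with the higher values at lower *RUNX1T1*, was seen for 53 genes, 0.334% of the total, *CEBPE* among them. *CEBPE* did not separate the CD34-silent from the CD34-expressing libraries, whose ranges overlapped at either level of *RUNX1T1*. The summed level of 6 eosinophil and mast cell markers, cells in which C/EBPε also acts, was higher in the same libraries, at 165 to 203 against 2.23 to 3.01 CPM in the CD34-expressing and 320 to 380 against 64.1 to 88.5 in the CD34-silent. The markers did not all move alike, and in the CD34-expressing libraries with lower *RUNX1T1* most of the sum came from *PRG2*, whose values are given below. In the CD34-expressing libraries 5 of the 6 were higher and 1 lower without overlap (18.1% and 20.1% of all genes). In the CD34-silent libraries 4 were higher and 1 lower (21.7% and 21.6%). Whether the libraries held such cells, and their part in the level of *CEBPE*, was not tested. In bulk RNA more cells of a type and more RNA per cell cannot be told apart.

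**Figure D1:**
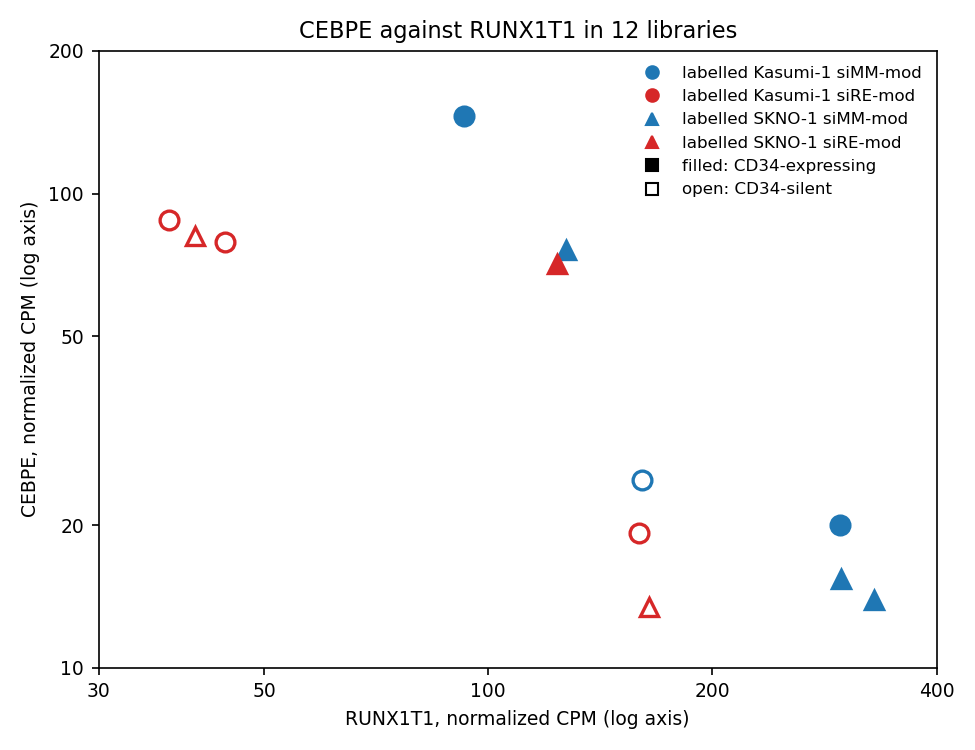
*CEBPE* (vertical) against *RUNX1T1* (horizontal), both in normalized CPM on log axes, in the 12 in vitro libraries. Filled symbols are CD34-expressing and open symbols CD34-silent; blue is the siMM-mod label, red siRE-mod, circles Kasumi-1 and triangles SKNO-1. Within either fill the 3 libraries with less *RUNX1T1* lie above the 3 with more, and the one labelled Kasumi-1 siMM-mod replicate 2, at 145 CPM of *CEBPE*, is the highest.

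*CEBPA*, the regulator of entry into the granulocyte lineage, was low in every library. Its values were 3.07, 7.16 and 2.73 CPM in Kasumi-1 siMM-mod and 2.53, 2.33 and 3.17 in Kasumi-1 siRE-mod. SKNO-1 had 1.64, 2.41 and 3.35 with siMM-mod and 3.25, 1.50 and 2.90 with siRE-mod. Kasumi-1 siMM-mod replicate 2, as labelled, stood apart at 7.16 CPM, the labelled groups overlapped in both lines, and the other 11 libraries lay between 1.50 and 3.35. By *RUNX1T1*, the CD34-expressing libraries with lower levels (3.25 to 7.16 CPM) lay just above those with higher levels (1.64 to 3.07), the nearest ends being 1.06-fold apart, whereas the CD34-silent ranges overlapped (2.53 to 3.17 and 1.50 to 2.73 CPM), although not on the CPM as deposited. The divergent non-coding transcript *CEBPA-DT*, which starts upstream of *CEBPA*, was at 1.33 to 2.19 CPM in the CD34-expressing and 0.289 to 0.615 in the CD34-silent libraries, without overlap, as were 15.6% of all genes in that direction. *CEBPA* itself overlapped between those 2 groups of 6.

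*CEBPB*, which serves stress granulopoiesis and the macrophage programme, was highest in a library labelled Kasumi-1. Kasumi-1 siMM-mod gave 6.35, 10.2 and 10.0 CPM, and Kasumi-1 siRE-mod 10.2, 5.41 and 19.1. SKNO-1 siMM-mod gave 4.27, 4.97 and 4.41 CPM, and SKNO-1 siRE-mod 3.86, 2.20 and 9.03. The siRE-mod values spanned those of siMM-mod in both lines, and neither *CD34* nor *RUNX1T1* separated its values. In the CD34-silent libraries they ran from 9.03 to 19.1 CPM with lower *RUNX1T1* and from 2.20 to 10.0 with higher, ranges that overlapped after TMM scaling and not on the CPM as deposited. The CD34-expressing libraries gave 3.86 to 10.2 and 4.27 to 6.35 CPM.

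*CEBPD*, a C/EBP gene induced in acute responses, was the 1 member whose labelled groups did not overlap, in Kasumi-1. It stood at 13.5, 27.1 and 11.0 CPM with siMM-mod and at 8.43, 7.22 and 11.0 with siRE-mod. The nearest values of the groups were the same to 3 digits, and on the CPM as deposited, which lack the scaling between libraries, the groups overlapped (10.3 to 23.1 and 7.87 to 12.2 CPM), as they did with DESeq2's size factors. Among all genes 11.1% were lower in siRE-mod without overlap in Kasumi-1 and 21.5% did not overlap in either direction. SKNO-1 had 9.11, 10.6 and 11.7 CPM with siMM-mod and 11.8, 3.51 and 5.96 with siRE-mod, which overlapped, and 6.01% of genes were lower there without overlap. *CEBPD* overlapped between higher and lower *RUNX1T1* in both CD34 sets.

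*CEBPG* and *DDIT3* are the members best known as partners that dampen the others: C/EBPγ lacks a strong activating domain, and CHOP, which ATF4 induces in the integrated stress response, forms dimers that do not bind the usual C/EBP site. *CEBPG* had the narrowest range, at 25.5, 29.6 and 22.1 CPM in Kasumi-1 siMM-mod and 28.4, 21.6 and 28.9 in siRE-mod. SKNO-1 gave 28.0, 29.9 and 30.9 with siMM-mod and 28.8, 19.5 and 34.0 with siRE-mod. The 3 CD34-silent libraries with higher *RUNX1T1* were the lowest of the 12, at 19.5 to 22.1 CPM, and the 3 CD34-silent libraries with lower *RUNX1T1* lay at 28.4 to 34.0. In the CD34-expressing libraries the ranges, 25.5 to 29.9 and 28.8 to 30.9 CPM, overlapped.

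*DDIT3* was at 2.65, 3.13 and 2.48 CPM in Kasumi-1 siMM-mod and at 3.29, 1.76 and 3.95 in siRE-mod. In SKNO-1 it was at 2.94, 2.44 and 3.89 with siMM-mod and 3.71, 2.66 and 3.40 with siRE-mod, so that the labels overlapped in both lines. With lower *RUNX1T1* it was higher in both CD34 sets, by 1.06-fold between the nearest ends in the CD34-expressing (3.13 to 3.89 against 2.44 to 2.94 CPM) and by 1.24-fold in the CD34-silent libraries (3.29 to 3.95 against 1.76 to 2.66). The smaller of these gaps is not firm, since the ranges overlapped on the CPM as deposited. *DDIT3* and *CEBPE* were the members higher in both sets after TMM scaling, as were 5.72% of all genes. Counted over the family, 3 of 6 members (*CEBPA*, *CEBPE* and *DDIT3*) were higher with lower *RUNX1T1* in the CD34-expressing libraries, where 18.1% of all genes were, and 3 of 6 (*CEBPE*, *CEBPG* and *DDIT3*) in the CD34-silent, where 21.7% were. The tally depends on the scaling: on the CPM as deposited it was 2 of 6 (*CEBPA* and *CEBPE*; 16.8% of all genes) in the CD34-expressing libraries and 5 of 6 (all but *CEBPD*; 31.1%) in the CD34-silent. After TMM scaling no member was lower without overlap in either set.

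The counts of *DDIT3* are uncertain, because 39.6% of its exon bases are shared with other genes, 355 of them with *MARS* on the opposite strand, which was at 97.0 to 188 CPM, and whether the counting used strand is not given in the sources used here. Likewise 43.9% of the *CEBPA* bases lie opposite AC008738.3 and AC008738.5, both at 0 counts in all 12 libraries, and 11.8% of *CEBPB* opposite *CEBPB-AS1* (0.157 to 0.724 CPM).

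Tested by the labels as given, no member passed the threshold. By the quasi-likelihood test of edgeR, adjusted after Benjamini-Hochberg at 0.05, 0 of 6 members and 0% of 13608 genes were called in Kasumi-1, although 17.9% of genes had an unadjusted p under 0.05 and DESeq2 called 8.55%. SKNO-1 likewise gave 0 of 6 members and 0% of 13628 genes, with 10.7% of genes at an unadjusted p under 0.05 and 2.73% called by DESeq2. With both lines in 1 model 0 of 6 members and 0% of 15863 genes were called, against 31.3% of genes at an unadjusted p under 0.05 and 21.7% called by DESeq2. DESeq2 called none of the 6 members in these comparisons either.

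*CEBPD* had the lowest p-values of the family. Its log2 fold change, siRE-mod over siMM-mod, was -0.95 ± 0.39 (SE) in Kasumi-1 (edgeR unadjusted p = 0.0491, adjusted p = 0.278; 12% of all genes were lower at an unadjusted p under 0.05), with group means of 17.2 ± 8.63 and 8.89 ± 1.95 CPM (SD, n = 3). With both lines it was -0.76 ± 0.31 (edgeR unadjusted p = 0.0295, adjusted p = 0.123), where 15.6% of all genes were lower at an unadjusted p under 0.05. It depended on single libraries: without Kasumi-1 siMM-mod replicate 3 the Kasumi-1 value was -1.19 (edgeR adjusted p = 0.0422), and without SKNO-1 siRE-mod replicate 1 the value over both lines was -1.04 (edgeR adjusted p = 0.0168). The count of called genes depended on the same libraries and went from 0 to 4250 in Kasumi-1 without the first and from 0 to 4123 over both lines without the second. The first, with 161 CPM of *RUNX1T1*, was the only siMM-mod library that was CD34-silent. The second, with 124, was the only siRE-mod library that was CD34-expressing.

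The errors of the other members were wide. For *CEBPE* the log2 fold change was -0.034 ± 0.94 in Kasumi-1 (95% interval -2.33 to 2.27), beside 0.64 ± 0.90 in SKNO-1 (-1.53 to 2.80). For *CEBPA* it was -0.69 ± 0.44 in Kasumi-1 (-1.76 to 0.38), beside 0.040 ± 0.50 in SKNO-1 (-1.14 to 1.22). These intervals include changes of more than 2-fold in at least 1 direction, so the labels do not show that either gene stayed level. *CEBPG* was bounded more closely, with -0.039 ± 0.15 over both lines (-0.36 to 0.28), and *DDIT3* had 0.10 ± 0.23 (-0.40 to 0.60). *CEBPB* had 0.27 ± 0.36 over both lines (-0.52 to 1.06).

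The effect of the label did not differ detectably between the lines for any member, with 0 of 6 called. As SKNO-1 minus Kasumi-1, the difference ranged over the 6 genes from -0.24 ± 0.75 for *CEBPB* to 0.74 ± 0.64 for *CEBPA* on the log2 scale, with edgeR adjusted p of 1.00 for each. The test called 0% of 15863 genes, with 0.668% at an unadjusted p under 0.05 and 0.801% called by DESeq2.

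**Figure D2:**
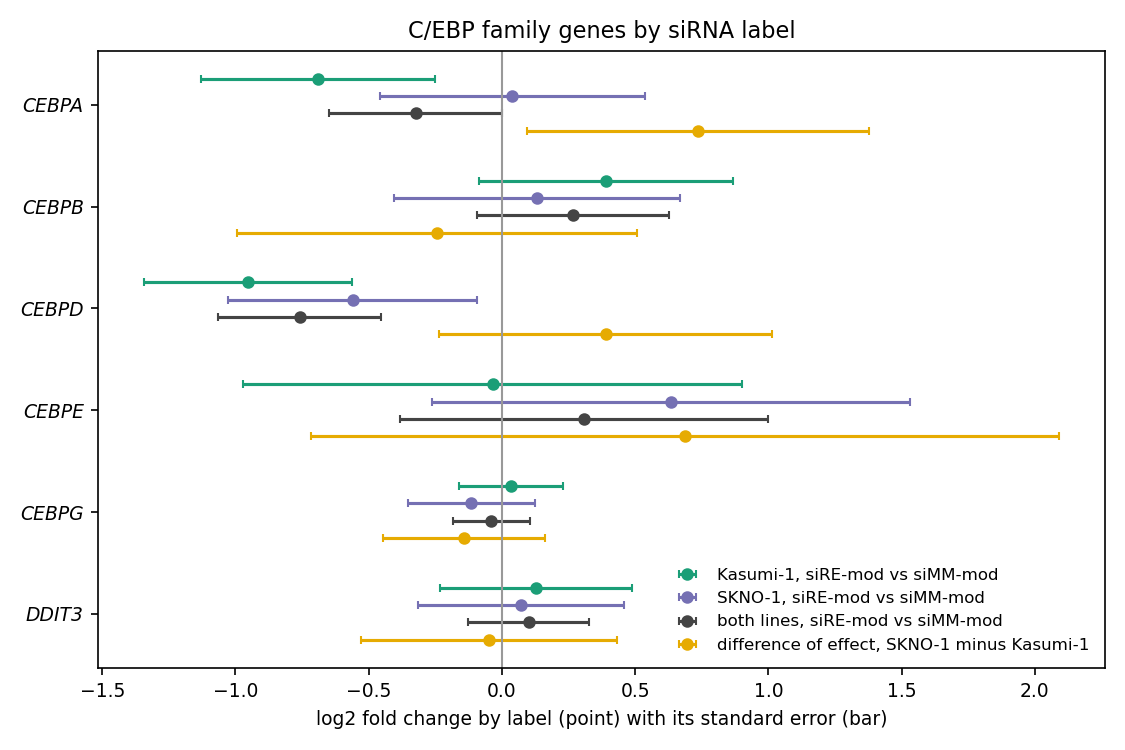
Log2 fold change of the 6 C/EBP genes by siRNA label (points; bars are ± 1 standard error) from edgeR, in Kasumi-1 (green), in SKNO-1 (purple) and in both lines (dark grey), and the difference of the effect between the lines (yellow). *CEBPD* in Kasumi-1, at -0.95 ± 0.39, lies farthest from 0 of the label effects, and the bars of *CEBPE* are the widest.

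The 4 GC-rich members moved with a GC index of the libraries. Transcripts of *CEBPA*, *CEBPB*, *CEBPD* and *CEBPE* have 65.9%, 66.2%, 66.0% and 61.5% G and C, at the 98.0, 98.3, 98.1 and 91.7 percentile of genes, whereas *CEBPG* has 39.8% and *DDIT3* 49.7%. A GC index was taken for each library as the median deviation from the mean of its set of 3 for the 1579 genes richest in GC, minus that of the 1579 poorest, on the log2 scale. It was 0.074 to 0.50 in the 6 libraries labelled Kasumi-1 and -0.38 to -0.12 in the 6 labelled SKNO-1, with no overlap, so that the index and the labelled line cannot be told apart. *CEBPB*, for comparison, was at 5.41 to 19.1 CPM (median 10.1) in the 6 libraries labelled Kasumi-1 and at 2.20 to 9.03 (median 4.34) in the 6 labelled SKNO-1. The other GC-rich members differed less by labelled line. Their medians in Kasumi-1 and SKNO-1 were 2.90 and 2.66 CPM for *CEBPA*, 11.0 and 9.88 for *CEBPD*, and 51.9 and 43.3 for *CEBPE*. The deviation of *CEBPD* from the mean of its set had a Pearson r of 0.94 and a Spearman rho of 0.94 with the index over 12 libraries, *CEBPE* 0.93 and 0.94, *CEBPA* 0.89 and 0.92, and *CEBPB* 0.88 and 0.92. *CEBPG* had -0.17 and -0.10, and *DDIT3* -0.49 and -0.45. These are descriptions: the values of a set are deviations from 1 mean, and the 4 genes are themselves among the 1579 richest.

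Kasumi-1 siMM-mod replicate 2, as labelled, with the highest index (0.50), was also the one in which *CEBPA*, *CEBPD* and *CEBPE* were highest, at 0.74, 0.80 and 0.65 log2 above the mean of its set. In each of the 4 sets the library with the most *CEBPA*, *CEBPB*, *CEBPD* and *CEBPE* was labelled Kasumi-1, while for *CEBPG* and *DDIT3* this held in 1 of 4. Of the 3 libraries of a set, 1 was labelled Kasumi-1 in either CD34-expressing set and most were in either CD34-silent set. The share of all genes, or of GC-rich genes, with the same pattern was not counted, so it is not read as a trait of the family. The part of GC content in the levels of the members was not tested.

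The promoters of *CEBPA* and *CEBPB* are rich in GC as well and are printed as examples. Each is the 250 bases before the RefSeq transcription start in GRCh38.p14, read 5′ to 3′ on the strand of the gene, at chr19:33302535-33302784 on the minus strand for *CEBPA* and at chr20:50190333-50190582 on the plus strand for *CEBPB*. Capitals mark GC boxes, GGGCGG or its complement CCGCCC, and the TATA motif TATAAA.
CEBPA: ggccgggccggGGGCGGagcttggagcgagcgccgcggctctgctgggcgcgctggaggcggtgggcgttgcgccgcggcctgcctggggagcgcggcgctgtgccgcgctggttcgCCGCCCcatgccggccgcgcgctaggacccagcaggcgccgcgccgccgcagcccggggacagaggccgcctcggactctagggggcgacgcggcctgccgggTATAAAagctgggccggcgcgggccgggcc
CEBPB: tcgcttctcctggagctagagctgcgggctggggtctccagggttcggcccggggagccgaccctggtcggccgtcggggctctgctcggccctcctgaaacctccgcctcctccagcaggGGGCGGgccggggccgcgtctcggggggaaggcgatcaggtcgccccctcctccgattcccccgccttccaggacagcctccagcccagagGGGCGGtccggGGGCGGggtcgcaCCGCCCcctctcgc
The *CEBPA* window has 81.2% GC, 2 GC boxes and a TATAAA match near its 3′ end, and the *CEBPB* window has 75.6% GC and 4 GC boxes. A GC box is found in 42.6% and TATAAA in 10.7% of the 35116 RefSeq windows of this length, whose median GC is 58%. The windows of *CEBPE* (57.2% GC), *CEBPG* (76.0%) and *DDIT3* (67.6%) were searched as well. That of *DDIT3* holds 3 GC boxes and that of *CEBPE* 1 match of the ETS core GAGGAA, which 23.6% of windows hold. The windows of *CEBPE* and *DDIT3* lie inside the gene spans given above, and that of *CEBPG* runs past the start of its span. GC of the window did not follow transcript GC in every member, since *CEBPG* has 39.8% GC in its transcript and *CEBPE* 61.5%. No window of *CEBPD* was searched. No match on either strand of the RUNX motif TGTGGT (11.0% of windows), the C/EBP motif TTGCNNAA (9.05%), the E-box CACGTG (6.34%) or the CRE core TGACG (21.2%) was in these 5 windows, which says only that those letters are not there.

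Members were also compared with each other and with all genes across the 12 libraries, as correlations of log2 CPM that share the sets and the GC index described above. Among the members *CEBPA* and *CEBPD* were the closest pair (r = 0.84), followed by *CEBPA* and *CEBPE* (0.77) and by *CEBPE* and *DDIT3* (0.72). *DDIT3* and *CEBPD* were the least alike (0.23). Of 7625 genes with a mean of at least 16 CPM, the closest to *CEBPE* were *AP5B1* (r = 0.98), *ATG13* (0.97) and *BAHCC1* (0.96). The closest to *CEBPA* were *MOGS* (0.95), *CDKN2C* (0.94) and *CTSD* (0.94), those to *CEBPB* were *NUDT1* (0.96), *CNPPD1* (0.95) and *EXOSC4* (0.95), and those to *CEBPD* were *ZFP36L2* (0.94), *HMGA1* (0.94) and *PRSS57* (0.94). *CEBPG* was most like *AAGAB* (0.98), *EXOC5* (0.95) and *CEP89* (0.95), and *DDIT3* most like *CCDC130* (0.87), *WDR20* (0.85) and *TTN* (0.84), the lowest values of the family.

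Most of the tested granulocyte genes that C/EBP factors are known to activate were lower in the CD34-silent libraries, also where *CEBPE* was high. None of the 12 of 20 that could be tested over both lines was called by label in edgeR, 5 were lower at an unadjusted p under 0.05 (15.6% of all genes) and DESeq2 called 5, all lower (21.7% of all genes in either direction), and their median log2 fold change was -1.44 beside 0.043 over all genes. Of the same 12, 8 were lower without overlap in the CD34-silent libraries, where 15.6% of all genes were. *ELANE*, the gene of neutrophil elastase and a direct C/EBP target, was at 535 to 1975 CPM in the CD34-expressing and 58.3 to 131 CPM in the CD34-silent libraries. *CSF3R*, the receptor for G-CSF, was at 422 to 640 and 60.4 to 267 CPM, *MPO*, the peroxidase of primary granules, at 10437 to 22667 and 1783 to 5750, and *AZU1*, another primary granule protein, at 281 to 1103 and 28.6 to 60.1.

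The same genes read by *RUNX1T1* gave other counts in the 2 CD34 sets. In the CD34-expressing libraries 6 of the 12 were higher and 1 lower without overlap (18.1% and 20.1% of all genes), and in the CD34-silent libraries 2 were higher and 6 lower (21.7% and 21.6%). *AZU1*, for instance, was at 617 to 1103 against 281 to 404 CPM in the first and at 28.6 to 32.0 against 39.6 to 60.1 CPM in the second, although *CEBPE* was higher with lower *RUNX1T1* in both. The secondary granule genes that C/EBPε is known to switch on stayed near 0, with at most 1 read of *LTF* and 17 reads of *CAMP* in any library.

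**Figure D3:**
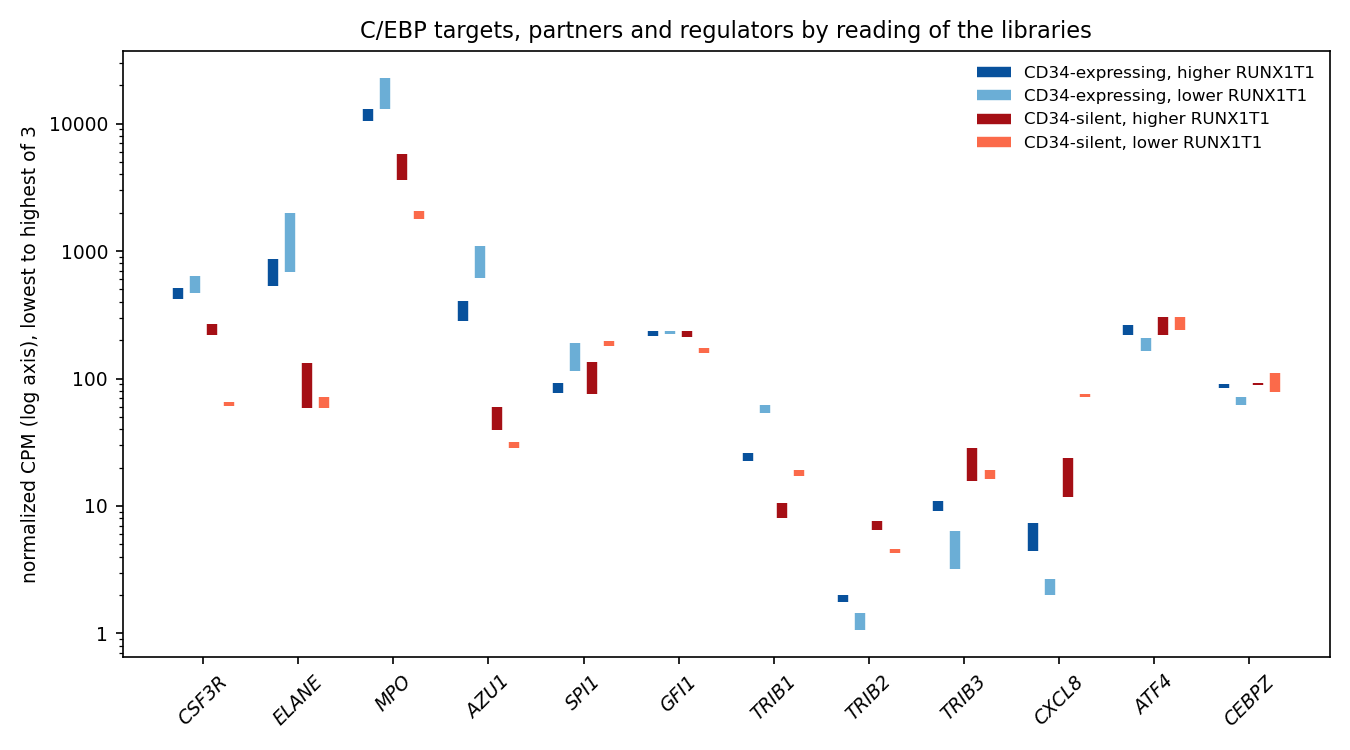
Range of normalized CPM (vertical log axis, lowest to highest of 3 libraries) of C/EBP targets, partners, regulators and other listed genes in the 4 sets: CD34-expressing with higher (dark blue) and lower *RUNX1T1* (light blue), CD34-silent with higher (dark red) and lower *RUNX1T1* (light red). *ELANE*, *MPO*, *AZU1* and *CSF3R* are lower in both CD34-silent sets, and *SPI1* and *TRIB1* are higher with lower *RUNX1T1* in both CD34 sets.

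Among 16 partners and regulators of C/EBP proteins, 0 were called by label over both lines in edgeR and DESeq2 called 4, all lower, where it called 21.7% of all genes. The median log2 fold change was -0.22 beside 0.043 over all genes, and 4 were lower at an unadjusted p under 0.05, as were 15.6% of all genes. With lower *RUNX1T1*, 4 of the 16 were higher and 7 lower without overlap in the CD34-expressing libraries (18.1% and 20.1% of all genes). In the CD34-silent libraries 6 were higher and 7 lower (21.7% and 21.6%). *RUNX1T1* is itself on this list of 16, and it is among the 7 lower in either set by construction, since its values made the sets. *SPI1* (PU.1), which acts with C/EBPα in myeloid genes, was higher with lower *RUNX1T1* in both CD34 sets, at 115 to 189 against 76.4 to 92.6 CPM and at 181 to 197 against 76.0 to 135 CPM. *TRIB1*, whose protein targets C/EBPα for degradation, was higher as well, at 53.6 to 61.7 against 22.4 to 26.3 CPM and at 17.1 to 19.1 against 8.09 to 10.6. Its relative *TRIB2*, with the same activity, was lower in both, at 1.07 to 1.44 against 1.77 to 2.01 CPM and at 4.27 to 4.57 against 6.48 to 7.63. *GFI1*, a repressor needed for neutrophil formation, was lower with lower *RUNX1T1* among CD34-silent libraries (159 to 175 against 211 to 238 CPM) and overlapped among the CD34-expressing ones (225 to 235 and 217 to 238).

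Of 20 genes of the integrated stress response, the pathway that induces *DDIT3*, 0 were called by label over both lines in edgeR, 2 were higher and 4 lower at an unadjusted p under 0.05, and DESeq2 called 1 higher and 3 lower. These counts stand beside 31.3% and 21.7% of all genes, and the median log2 fold change was 0.058 beside 0.043. With lower *RUNX1T1*, 4 were higher and 11 lower without overlap in the CD34-expressing libraries (18.1% and 20.1% of all genes) and 2 were higher and 4 lower in the CD34-silent (21.7% and 21.6%). *ATF4*, its direct inducer, was at 164 to 208 against 220 to 263 CPM in the CD34-expressing libraries and overlapped in the CD34-silent ones (238 to 303 and 219 to 302 CPM), although not on the CPM as deposited. *CHAC1*, another gene induced through ATF4, was lower in both, at 0.373 to 0.689 against 2.23 to 2.49 CPM and at 0.261 to 0.491 against 0.938 to 5.32.

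Of 15 inflammatory genes known as C/EBP targets 8 had enough reads over both lines. None of the 8 was called by label in edgeR, 3 were higher at an unadjusted p under 0.05 (31.3% of all genes in either direction), DESeq2 called 2, both higher (21.7%), and the median log2 fold change was 1.98 beside 0.043 over all genes. With lower *RUNX1T1*, 3 were higher and 3 lower without overlap in the CD34-expressing libraries (18.1% and 20.1% of all genes), and 5 were higher and 2 lower in the CD34-silent (21.7% and 21.6%). *CXCL8*, the neutrophil chemokine, was highest in the CD34-silent libraries with lower *RUNX1T1*, at 71.3 to 76.0 CPM beside 11.9 to 23.7 where it was higher, and it was lower with lower *RUNX1T1* in the CD34-expressing libraries, at 1.99 to 2.67 beside 4.41 to 7.36. *S100A8* and *S100A9*, calcium-binding proteins of mature granulocytes and monocytes, were low and lay higher with lower *RUNX1T1* in both CD34 sets. *S100A8* was at 0.329 to 0.587 CPM against 0 in the CD34-expressing libraries and at 0.951 to 2.22 against 0.038 to 0.072 in the CD34-silent. *S100A9* was at 1.09 to 1.90 against 0.400 to 0.597 CPM and at 0.546 to 0.803 against 0.0077 to 0.022, the last being 1 to 2 reads a library. Of 10 neighbouring and other bZIP genes 6 were tested over both lines and 0 were called in edgeR or DESeq2, with 1 lower at an unadjusted p under 0.05 (15.6% of all genes) and a median log2 fold change of -0.23 beside 0.043. *CEBPZ*, which carries the family name but is no bZIP factor, was at 62.3 to 111 CPM.

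Markers of other cell types were set beside these values. The sum of the 6 eosinophil and mast cell markers, given above beside *CEBPE*, covers genes of unlike level. In 5 of the 6 the CD34-silent and CD34-expressing ranges did not overlap, being higher in the CD34-silent, where 17.5% of all genes were. By label the sum spanned 2.95 to 203 CPM in Kasumi-1 siMM-mod and 76.8 to 349 in siRE-mod, and 2.23 to 165 and 64.1 to 380 in SKNO-1. *CLC* was at 0 in the 3 CD34-expressing libraries with higher *RUNX1T1*, *EPX* did not exceed 3.32 CPM in any library, and *PRG2*, of eosinophil granules, was at 156 to 194 CPM in the CD34-expressing libraries with lower *RUNX1T1*, genes named after their values were seen. *IL5RA*, the interleukin-5 receptor of eosinophils, was at 0 to 0.179 CPM in the CD34-expressing and 36.3 to 68.0 in the CD34-silent libraries.

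The 6 markers of t(8;21) blasts, *CD34* and *RUNX1T1* among them, summed to 1718 to 1807 and 1010 to 1126 CPM in the CD34-expressing libraries with higher and lower *RUNX1T1*, and to 892 to 946 and 358 to 435 CPM in the CD34-silent ones. The megakaryocyte sum was 1.51 to 2.38 CPM in the CD34-expressing and 53.4 to 90.8 in the CD34-silent libraries. Only 1 of its 4 genes, *ITGA2B*, had enough reads to be tested. *ITGA2B* was higher without overlap in the CD34-silent libraries, as were 17.5% of all genes. Erythroid markers summed to at most 2.72 CPM, T cell markers to 0.402, fibroblast markers to 0.199 and B cell markers to 14.4.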

How the data were processed

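RNA-seq of 12 in vitro libraries was analysed from the deposited tables, in which the authors give raw read counts per gene over exons, with CPM and FPKM made from the same counts. Per the labels and file headers, reads were trimmed with Trim Galore 0.6.5, aligned to GRCh38 with STAR 2.7.10a and counted with Rsubread 1.32.4 under R 3.5.1; the submitters' notes also name Subread 1.6.5, HTSeq and Bowtie2 2.4.5. The strand setting is not given in the sources used here. Depth was 60559466 to 147990959 counts on genes (median 89160101). The in vivo tables, also deposited as counts, list the members at 0 and were not tested. The deposited CPM and FPKM served as alternatives for levels.

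Fits kept genes with at least 600 reads in total. Libraries were scaled by TMM and compared by label with edgeR 4.0.16 (glmQLFit with robust estimation, glmQLFTest; R 4.3.3), with Benjamini-Hochberg adjustment over all genes at 0.05; the model over both lines had the line as covariate, and an interaction tested the difference. DESeq2 1.42.0, DESeq2's size factors in edgeR, other filters, a replicate block, 1 fit of all libraries and leaving out each library were alternatives. Level means normalized CPM, a log2 CPM has a prior count of 2, and GC is that of the longest GENCODE 44 transcript, known for 99.5% of genes. Libraries were also read by *CD34* at 10 CPM and then by the largest gap in *RUNX1T1*. The fits were tested on simulated counts. Genes named are the members, the 3 genes most like each, and listed partners, targets and markers with a fixed set named in any case; members and lists were chosen with earlier results of these data known. Same-numbered libraries of siMM-mod and siRE-mod had deviations that correlated at -0.27 to -0.013, so the numbers were not taken as pairs.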

Additional observations from a re-analysis of the deposited data

How the results depend on the processing

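No member was called in any of the 132 refits with all libraries, of which 128 kept the direction. The 4 that turned were *CEBPE* in Kasumi-1 with the replicate block (0.61), *CEBPG* in Kasumi-1 with filterByExpr (-0.015), *CEBPB* in SKNO-1 with the replicate block (-0.097) and the difference between the lines for *DDIT3* with the block (0.030). The replicate block gave 0 called genes in every comparison, while an unadjusted p under 0.05 was reached by 1763 genes in Kasumi-1, 1133 in SKNO-1, 4620 over both lines and 21 for the difference. Genes called were 1163, 372, 3449 and 127 with DESeq2, whose cause was not tested, and 0 with the other settings that kept all libraries. Leaving out 1 library gave 0 to 4250 called genes in Kasumi-1 (4250 without siMM-mod replicate 3), 0 to 2535 in SKNO-1 (2535 without siRE-mod replicate 1), 0 to 4336 over both lines (4336 without Kasumi-1 siMM-mod replicate 3, 4123 without SKNO-1 siRE-mod replicate 1 and 860 without SKNO-1 siMM-mod replicate 3) and 0 for the difference; each leaves a group of 2.

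Of 216 such refits of members 29 turned and 2, both of *CEBPD*, passed the threshold. The lowest and highest log2 fold changes in Kasumi-1 were -0.94 and -0.11 for *CEBPA*, -0.16 and 0.74 for *CEBPB*, -1.19 and -0.46 for *CEBPD*, -0.47 and 1.48 for *CEBPE*, -0.068 and 0.16 for *CEBPG*, and -0.10 and 0.40 for *DDIT3*. In SKNO-1 they were -0.21 and 0.34, -0.55 and 0.48, -1.18 and -0.22, 0.24 and 1.92, -0.26 and 0.079, and -0.084 and 0.29, in the same order of genes. Over both lines they were -0.47 and -0.028, -0.028 and 0.44, -1.04 and -0.52, 0.098 and 1.01, -0.11 and 0.058, and -0.010 and 0.22. For the difference they were 0.16 and 1.02, -0.97 and 0.32, -0.20 and 0.71, -0.82 and 1.95, -0.32 and 0.050, and -0.32 and 0.20. Scalings tried after the data were seen turned the separation of *CEBPD* by label in Kasumi-1 (log2 ratio of the nearest ends -0.25 on the CPM as deposited and -0.016 with DESeq2's size factors) and of *DDIT3* in the CD34-expressing libraries (-0.050 on the CPM as deposited), left *CEBPE* separated in both CD34 sets, and on the CPM as deposited moved the members higher with lower *RUNX1T1* from 3 to 2 in the CD34-expressing and from 3 to 5 in the CD34-silent libraries. At 115 to 561 reads *CEBPA* is limited by depth as well as by the spread between libraries.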
